A study of Schizosaccharomyces pombe with 12 samples.

Results

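Messenger RNA levels were examined for 10 fission yeast genes that encode RNA decay and termination factors, out of the 6986 annotated loci with a count. The genes were taken by name and systematic ID: *mmi1* (SPCC736.12c), *red1* (SPAC1006.03c), *mtl1* (SPAC17H9.02), *pab2* (SPBC16E9.12c), *rrp6* (SPAC1F3.01), *dis3* (SPBC26H8.10), *dhp1* (SPAC26A3.12c), *rhn1* (SPBC337.03), *upf1* (SPAC16C9.06c) and *exo2* (SPAC17A5.14). The rule that names them holds no expression value, but it was set with earlier results of these data known. The chosen ID was in the count table for 9 of the 10; for *pab2* the ID given matched no locus, and the locus that RefSeq names *pab2* was used. Poly(A)+ RNA was sequenced from *Schizosaccharomyces pombe* in 3 biological replicates of each of 4 strains: wild-type and the null mutants of *dis2* (*dis2*Δ), *ppn1* (*ppn1*Δ) and *swd22* (*swd22*Δ). Ppn1, Swd22 and the protein phosphatase Dis2 form the DPS module of the cleavage and polyadenylation factor, and the question was what each of them contributes to the transcriptome. All 4 strains were h+ and were grown in YES medium at 30°C to logarithmic phase. The *ppn1* and *swd22* genes were each deleted with a HygMX cassette and *dis2* with a NatMX cassette; wild-type carries none. The labels give 1 laboratory strain number per genotype, so no second deletion isolate was measured.

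Nuclear RNA surveillance in fission yeast joins an RNA-binding adaptor, a bridging complex and a nuclease. Mmi1 recognizes meiotic messages made in mitotic cells, the MTREC complex built on Red1 and the helicase Mtl1 bridges to the exosome with the nuclear poly(A)-binding protein Pab2, and the exosome nucleases Rrp6 and Dis3 degrade the RNA from its 3′ end. Dhp1 degrades RNA from its 5′ end behind the polymerase at termination, and Rhn1 binds the phosphorylated polymerase tail there. Upf1 and Exo2 are the 2 genes of the set whose products act mainly in the cytoplasm, in nonsense-mediated decay and in 5′ to 3′ decay of decapped messages.

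Libraries held 17616688 to 23435936 counts, and replicates always differed by more than sampling noise (chi-square over its degrees of freedom between 5.38 and 23.6). The deletions were visible in the libraries. *ppn1* had 86 to 150 counts in *ppn1*Δ against 462 to 549 in wild-type. *swd22* had 10 to 26 in *swd22*Δ against 1407 to 1618, and *dis2* had 646 to 900 in *dis2*Δ against 11788 to 12259. The paper states that the coding sequence removed in each null strain had no reads. The counts here are over annotated exons, and where in each gene the remaining reads lie was not examined. In wild-type, the summed level of the h+ markers *map2* and *map3* was 628 to 700.3 normalized counts. That of the h- markers *mfm1*, *mfm2*, *mfm3* and *mam2* was 292 to 388 and not at 0. The larger h+ sum came mainly from *map3* (mean 574). *map2* (79.8) was below *mam2* (206) and *mfm2* (83.9) and above *mfm1* (12.5) and *mfm3* (25.1), so the order of the sums does not tell mating type. The summed level of 8 stress-response genes was 42791 to 50177 in wild-type and 42464 to 47108 in *dis2*Δ, and it was larger in *ppn1*Δ (51998 to 73903) and in *swd22*Δ (52910.4 to 73417). The largest part of that sum is *gpd1*, which fell in *dis2*Δ (mean 15642, against 22694 in wild-type) as *ctt1* did, while the chaperone genes *hsp16* (4952 against 1398) and *ssa1* (5356 against 2833) and the gene *srx1* (476 against 276) rose there. All of these 3 rises were also called in *ppn1*Δ and *swd22*Δ. The part of these stress genes' changes in those described here was not tested. Because the RNA was taken from whole cultures, fewer cells with a transcript and less transcript per cell cannot be told apart.

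The 10 genes covered a 9.76-fold range of level in wild-type when counts were scaled for library and divided by exon length. A normalized count here is a count scaled by edgeR's TMM factors to a library of 20755522 counts. The most abundant message was *pab2*, with 2832 ± 109 normalized counts per kb of exon (SD, n = 3), followed by *upf1* with 998 ± 83.6 and *mmi1* with 751 ± 40.9. The next in order were *dis3* (651 ± 43.9), *exo2* (571 ± 28.7), *rrp6* (538 ± 84.7) and *dhp1* (416 ± 22.8), and the least abundant were *red1* (322 ± 34.7), *rhn1* (303 ± 10.9) and *mtl1* (290.1 ± 32.9). Replicate values overlapped between the neighbors *exo2* and *rrp6*, *red1* and *rhn1*, and *rhn1* and *mtl1*, and these neighbors were not ordered beyond their spread. Among 4973 coding loci with a level, *mtl1* stood above 24.0% and *pab2* above 82.8%. By mean level per kb of exon, *mmi1* ranked 3 among the 10 genes in wild-type but 4 in *dis2*Δ and *swd22*Δ and 5 in *ppn1*Δ. The *mmi1* replicate values overlapped those of *dis3* and *rrp6* in *swd22*Δ and those of *exo2* and *rrp6* in *dis2*Δ. Its ranks in these 2 mutants were therefore not beyond the spread. These ranks depend on the exon length, and ranks by coding length were obtained for wild-type only. Lengths are those of the RefSeq annotation of ASM294v3, whereas reads were counted on ASM294v2 models. The untranslated share of the annotated exons ranged from 1.4% for *rhn1* to 46.7% for *mmi1* and 60.1% for *pab2*, and with coding length alone the range between the highest and the lowest gene was 23.1-fold and the order changed. By coding length *mmi1* (1410.3 normalized counts per kb) stood above *upf1* (1075), and *dhp1* (679) stood above *exo2* (596) and *rrp6* (561).

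**Figure D1:**
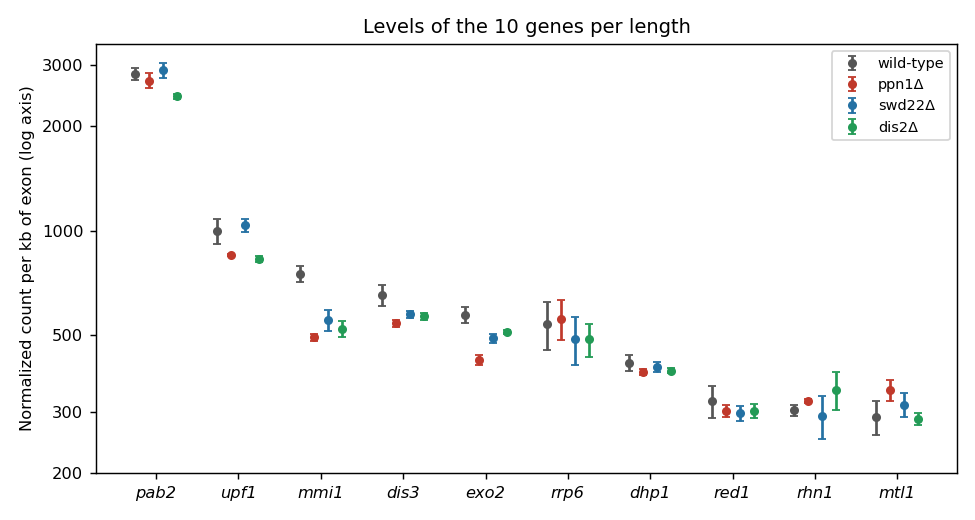
Level of each gene in each strain, as the mean normalized count per kb of annotated exon on a log axis, with bars of 1 SD over 3 replicates. *pab2* stands above the rest in every strain, and *mmi1* in the mutants sits below its wild-type level of 751.

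Of the 10 genes, 3 (*mmi1*, *dis3* and *exo2*) were called lower in all 3 mutants, as were 11.9% of all loci tested. In all, 5 were called lower in at least 1 mutant, 1 gene was called higher, and 4 genes (*red1*, *rrp6*, *dhp1* and *rhn1*) were called in none. The shares of all loci called in at least 1 mutant or in none were not counted. Genes were called with edgeR's quasi-likelihood test when the p adjusted over 6110 loci did not exceed 0.05. In *ppn1*Δ, 4 genes were lower and 1 was higher, where 25.2% of all loci tested were lower and 24.5% higher. In *swd22*Δ, 3 were lower and 0 higher, against 20.5% and 19.3% of all loci. In *dis2*Δ, 5 were lower and 0 higher, against 21.8% and 19.5%. In both of these mutants the number higher was also 0 at an unadjusted p under 0.05 in edgeR and with DESeq2. With so few genes these counts describe the set and were not tested against the background. The log2 fold changes of the 10 genes had a median of -0.16 in *dis2*Δ, -0.091 in *ppn1*Δ and -0.086 in *swd22*Δ, where the median over all loci was 0.0025, 0.0082 and -0.0016. No change reached the 2-fold cutoff that the authors applied beside a minimum of 100 for the mean normalized count, which 3.45% of all loci passed in *ppn1*Δ, 3.26% in the *swd22*Δ strain and 2.78% in the *dis2*Δ strain. The 3 comparisons share the wild-type libraries, so a wild-type library that is high for a gene lowers that gene in all of them. Without wild-type replicate 1, the test called 3 genes in place of 5 for *ppn1*Δ, 2 in place of 3 for *swd22*Δ and 2 in place of 5 for *dis2*Δ.

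**Figure D2:**
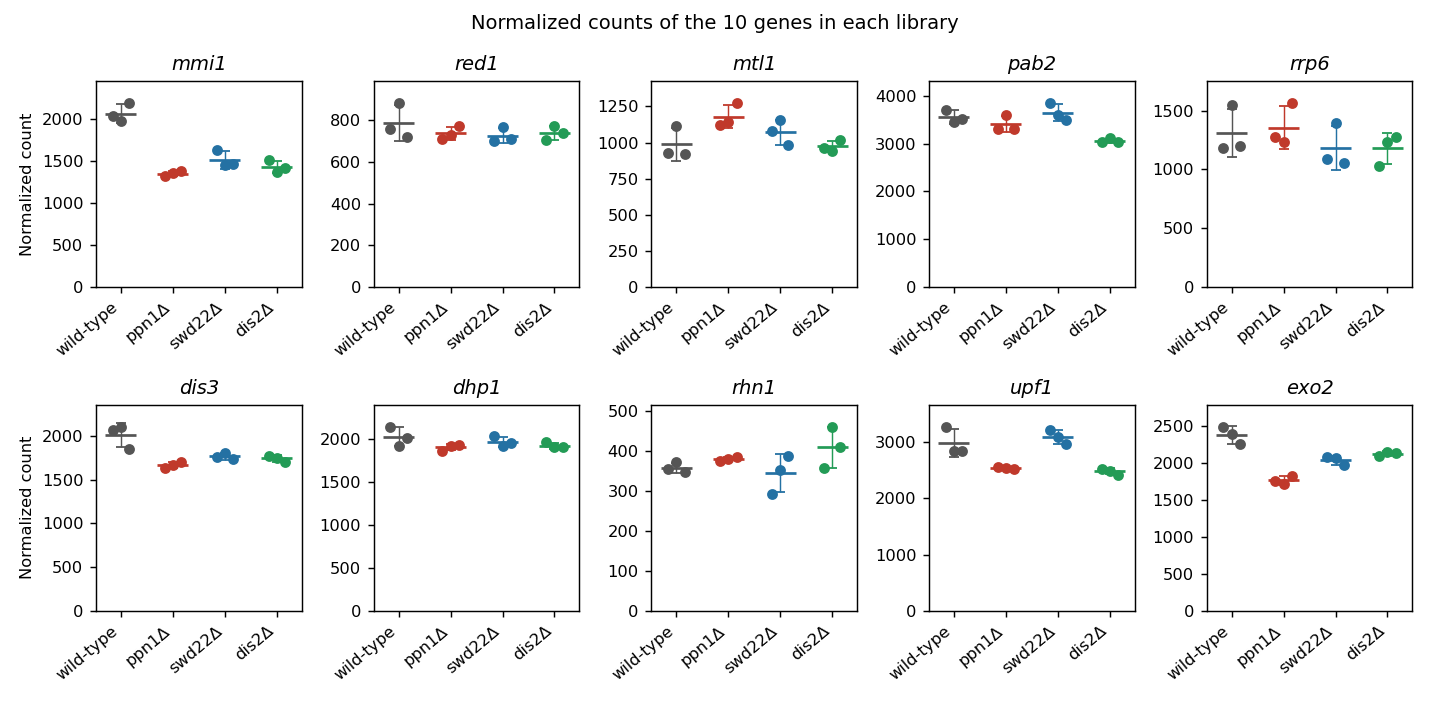
Normalized count of each gene in each of the 12 libraries, on axes that start at 0, with points for replicates, horizontal lines for strain means and bars of 1 SD. The *mmi1* counts in all 9 mutant libraries lie below the lowest wild-type value of 1976, and the *rrp6* counts of the strains overlap.

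*mmi1* showed the largest changes of the set. Its normalized counts were 2036, 1976 and 2194 in wild-type, 1515, 1369 and 1416 in *dis2*Δ, 1322, 1360.2 and 1379.8 in *ppn1*Δ, and 1639, 1451 and 1464 in *swd22*Δ. Every mutant library was below every wild-type library. The message fell by 34.5% in *ppn1*Δ (log2 fold change -0.61, SE 0.065, adjusted p = 1.0e-06, edgeR), fell by 26.6% in *swd22*Δ (-0.45, SE 0.065, adjusted p = 3.94e-05) and fell by 30.7% in *dis2*Δ (-0.53, SE 0.065, adjusted p = 7.92e-06). These calls held in all 19 refits for each mutant, with another tool, scaling, filter, sample set or a library left out, with adjusted p at most 3.13e-05, 0.000396 and 0.000123. Of the 6110 loci tested, 472 had a lower log2 fold change in *ppn1*Δ, 674 in the *swd22*Δ strain and 440.0 in the *dis2*Δ strain. Between mutants, *mmi1* was 12.1% higher in *swd22*Δ than in *ppn1*Δ (log2 difference 0.16, 95% interval 0.026 to 0.30, adjusted p = 0.151), and no pair of mutants passed the test. The gene has 5 exons on chromosome III, and its 3′ neighbor on the opposite strand, 17 bases away in ASM294v3, is *ago1*, which encodes the Argonaute protein of RNA interference. The *ago1* log2 fold changes were -0.16, -0.027 and -0.079, none of which passed the test.

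Of the 2 core genes of the bridging complex, *red1* was called in no mutant and *mtl1* in *ppn1*Δ. *red1*, the zinc-finger scaffold of MTREC, had 758, 883 and 721 normalized counts in wild-type and 699 to 771 in the 9 mutant libraries, inside the wild-type range except for 4 libraries below it. Its log2 fold changes were -0.092 in *dis2*Δ, -0.094 in *ppn1*Δ and -0.12 in *swd22*Δ (SE 0.085 each, adjusted p = 0.407, 0.379 and 0.289), and the 95% intervals ran from -18.6% to 6.21% over the 3 mutants. *mtl1*, the Mtr4-like helicase of the complex, was the only gene of the 10 called higher than wild-type in any mutant. It had 927, 1116 and 918 normalized counts in wild-type and 1123, 1143 and 1273 in *ppn1*Δ. All 3 *ppn1*Δ libraries were above wild-type, the lowest of them just above wild-type replicate 2. The rise was 19.5% (log2 fold change 0.26, SE 0.086, adjusted p = 0.0201) and was no longer called without wild-type replicate 1 (adjusted p = 0.0687), wild-type replicate 3 (0.0935) or *ppn1*Δ replicate 3 (0.0952). In *swd22*Δ (1077, 1156 and 981) and *dis2*Δ (959.9, 944 and 1018) the *mtl1* counts overlapped wild-type, with log2 fold changes of 0.12 and -0.02 and adjusted p of 0.296 and 0.876.

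*pab2*, the nuclear poly(A)-binding protein gene, was called against wild-type only in *dis2*Δ. Its normalized counts were 3712, 3451 and 3507 in wild-type and 3035, 3112 and 3030.1 in *dis2*Δ, with no overlap. The message fell by 14.0% in that strain (log2 fold change -0.22, SE 0.057, adjusted p = 0.00555), and without wild-type replicate 1 the adjusted p was 0.0539. In *ppn1*Δ (3309, 3593 and 3299) and *swd22*Δ (3846, 3596 and 3499) the counts overlapped wild-type, with log2 fold changes of -0.065 and 0.036. The non-coding locus SPNCRNA.1478 lies opposite 51.5% of *pab2* in ASM294v3. It had 41.2 to 55.7 normalized counts in wild-type and rose in *ppn1*Δ, to 82.1 to 93.6 (log2 fold change 0.83, SE 0.16, adjusted p = 0.000455), and in *swd22*Δ, to 74.2 to 81.4 (0.71, SE 0.16, adjusted p = 0.00255), while in *dis2*Δ it had 61.4 to 62.6 (0.36, SE 0.17, adjusted p = 0.102). The kit kept the strand of the RNA, but the strand setting of the counting was not given in the sources used here, so reads of *pab2* and of this locus may not be fully separated.

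Of the exosome nuclease genes, *dis3* was called lower in each mutant and *rrp6* in none, and the difference between the genes was not tested. *dis3*, the catalytic nuclease of the exosome, had 2067, 2107 and 1855 normalized counts in wild-type, 1777, 1753 and 1706 in *dis2*Δ, 1629.6, 1667 and 1701 in *ppn1*Δ, and 1758, 1807 and 1738 in *swd22*Δ. All 9 mutant libraries were below the lowest wild-type library. The message fell by 17.1% in *ppn1*Δ (log2 fold change -0.27, SE 0.058, adjusted p = 0.00103, edgeR), fell by 12.1% in *swd22*Δ (-0.19, SE 0.058, adjusted p = 0.0172) and fell by 13.2% in *dis2*Δ (-0.20, SE 0.058, adjusted p = 0.00972). The call in *ppn1*Δ held in all 19 refits, whereas without wild-type replicate 1 the adjusted p was 0.0729 in *swd22*Δ and 0.0555 in *dis2*Δ, and with library size as the only scaling it was 0.0676 in *swd22*Δ. In *swd22*Δ the call was also lost without wild-type replicate 2 (0.077) and without *swd22*Δ replicate 3 (0.0529). The coding gene *the4* (SPBC26H8.11c), on the opposite strand, overlaps the 3′ end of *dis3* by 122 bases in ASM294v3. Its normalized counts fell from 3736 to 3796 in wild-type cells to 1639.9 to 1871 in *ppn1*Δ (log2 fold change -1.10, SE 0.095, adjusted p = 1.06e-07) and to 1959 to 2775 in *swd22*Δ (-0.65, SE 0.094, adjusted p = 3.92e-05), and were 2967 to 3487 in *dis2*Δ (-0.22, SE 0.093, adjusted p = 0.0737). The part of shared reads in the *dis3* change was not tested.

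*rrp6*, the nuclear exosome subunit that also trims RNA, varied widely between replicates, with a coefficient of variation of at least 11.1% in every strain and of 15.8% in wild-type; in *dis2*Δ *rhn1* varied more, at 12.6%. Its normalized counts were 1181, 1546 and 1198 in wild-type, 1032, 1236 and 1275 in *dis2*Δ, 1274, 1230.5 and 1564 in *ppn1*Δ, and 1089, 1399 and 1057 in *swd22*Δ. The strains overlapped throughout, and in each strain except *dis2*Δ a single library stood above the other 2. The log2 fold changes against wild-type were 0.053 for *ppn1*Δ, -0.15 for *swd22*Δ and -0.15 for *dis2*Δ (SE 0.12 each, adjusted p = 0.747, 0.374 and 0.357). The 95% intervals ran from -13.5% to 24.3% in *ppn1*Δ, from -24.7% to 8.42% in *swd22*Δ and from -24.9% to 8.16% in *dis2*Δ. Changes of *rrp6* within these intervals were not excluded by these replicates.

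The termination genes *dhp1* and *rhn1* were called in no mutant. *dhp1*, which encodes the essential nuclear 5′ exonuclease, had 2139, 1918 and 2007 normalized counts in wild-type and 1858 to 2031 in the mutants, with log2 fold changes of -0.089 for *ppn1*Δ, -0.04 for *swd22*Δ and -0.075 for *dis2*Δ (SE 0.055 to 0.056) and 95% intervals that stayed between -13.3% and 5.46%. A coding gene without a symbol, SPAC26A3.11, is annotated within *dhp1* on the opposite strand over 25.2% of its length. Its counts rose in each mutant, from 3229.8 to 3472 in wild-type cells to 3864 to 4153 in *ppn1*Δ (adjusted p = 0.00327), 3859 to 4473 in *swd22*Δ (adjusted p = 0.000738) and 3933 to 4351 in *dis2*Δ (adjusted p = 0.00105). *rhn1*, the polymerase-tail binding factor, had 354, 372 and 347 normalized counts in wild-type, 358, 460.5 and 410.1 in *dis2*Δ, 376, 380.1 and 386 in *ppn1*Δ, and 292, 353 and 387 in *swd22*Δ. The 3 *ppn1*Δ libraries were all above wild-type, by little, and the other mutants overlapped it. Its log2 fold changes were 0.09 for *ppn1*Δ, -0.055 for *swd22*Δ and 0.19 for *dis2*Δ (SE 0.11 each). In edgeR the adjusted p was 0.533, 0.729 and 0.183. The 95% intervals of the change ran from -9.70% to 25.5%, from -18.5% to 13.7% and from -3.04% to 34.8%, in the same order.

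Both cytoplasmic factors fell in *ppn1*Δ and *dis2*Δ, and *exo2* also fell in *swd22*Δ. *upf1*, the helicase of nonsense-mediated decay, had 3275, 2841 and 2843 normalized counts in wild-type, 2528, 2492 and 2422 in *dis2*Δ, 2563, 2537 and 2532 in *ppn1*Δ, and 3220.5, 3096 and 2969.7 in *swd22*Δ. The *ppn1*Δ and *dis2*Δ libraries were below every wild-type library, and the *swd22*Δ libraries lay inside the wild-type range. The message fell by 14.8% in *ppn1*Δ (log2 fold change -0.23, SE 0.06, adjusted p = 0.00438, edgeR) and fell by 16.9% in *dis2*Δ (-0.27, SE 0.06, adjusted p = 0.00199), while in *swd22*Δ the log2 fold change was 0.052 (SE 0.06, adjusted p = 0.52). Wild-type replicate 1 was the high library for *upf1*, and without it the adjusted p in *ppn1*Δ was 0.0626 and the log2 fold change -0.15, whereas the *dis2*Δ call held in all 19 refits. *exo2*, the cytoplasmic 5′ to 3′ exonuclease, had 2487, 2397 and 2250.4 normalized counts in wild-type, 2091, 2153 and 2133 in *dis2*Δ, 1752, 1712 and 1820.4 in *ppn1*Δ, and 2074, 2065 and 1966 in *swd22*Δ. Every mutant library was below wild-type, and the *ppn1*Δ libraries were below those of the other mutants. It fell by 25.9% in *ppn1*Δ (log2 fold change -0.43, SE 0.055, adjusted p = 7.08e-06), fell by 14.4% in *swd22*Δ (-0.22, SE 0.055, adjusted p = 0.00358) and fell by 10.6% in *dis2*Δ (-0.16, SE 0.055, adjusted p = 0.0252). The *exo2* calls in *ppn1*Δ and *swd22*Δ held in all 19 refits. The *dis2*Δ call was lost without wild-type replicate 1 (adjusted p = 0.156), without wild-type replicate 2 (0.0616) and without any of the 3 *dis2*Δ replicates (0.0595 to 0.0718).

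**Figure D3:**
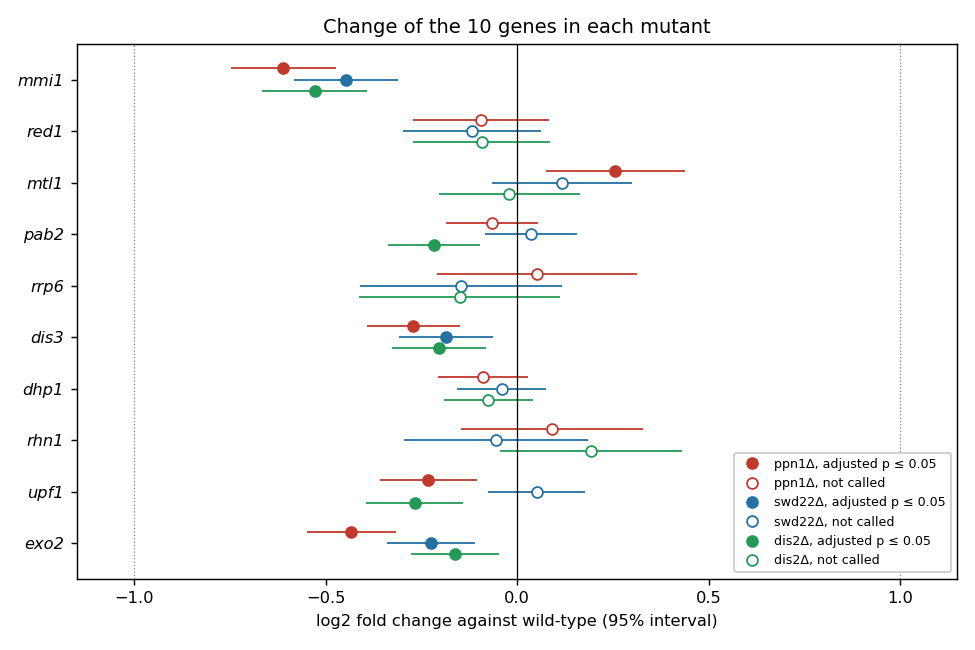
Log2 fold change of each gene against wild-type in each mutant, with 95% intervals from edgeR's fit; filled points have an adjusted p at or below 0.05 and dotted lines mark a 2-fold change. The *mmi1* points lie between -0.61 and -0.45, and the *upf1* point of *swd22*Δ lies at 0.052 beside -0.23 and -0.27 in the other mutants.

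The mutants were also compared with each other, and 2 of the 10 genes were called in each pair, where 6.32% of all loci were called for *swd22*Δ against *ppn1*Δ, 28.7% for *dis2*Δ against *ppn1*Δ and 18.6% for *dis2*Δ against *swd22*Δ. *upf1* separated *swd22*Δ from the other mutants: it was 21.7% higher there than in *ppn1*Δ (log2 difference 0.28, SE 0.06, adjusted p = 0.0112) and in *dis2*Δ it was at 80.1% of its *swd22*Δ level (-0.32, SE 0.06, adjusted p = 0.00142), with no overlap of libraries in either pair. Between *dis2*Δ and *ppn1*Δ the *upf1* difference was -0.036 (95% interval -0.16 to 0.091). *exo2* was 15.5% higher in *swd22*Δ (log2 difference 0.21, SE 0.055, adjusted p = 0.0328) and 20.6% higher in *dis2*Δ (0.27, SE 0.055, adjusted p = 0.00143) than in *ppn1*Δ. The *exo2* difference between *swd22*Δ and *ppn1*Δ lost its call with library size as the only scaling (adjusted p = 0.191) and with the 6 libraries of the pair alone (0.129). *pab2* in *dis2*Δ was at 83.9% of its *swd22*Δ level (-0.25, SE 0.057, adjusted p = 0.00483), and at 90.0% of its *ppn1*Δ level (-0.15, SE 0.057, adjusted p = 0.0528). *mtl1* in *dis2*Δ was at 82.5% of its *ppn1*Δ level (-0.28, SE 0.086, adjusted p = 0.023). The counts of *mmi1* and *dis3* passed the test between no pair of mutants, with intervals of the log2 difference from -0.22 to 0.30 for *mmi1* and from -0.14 to 0.21 for *dis3*.

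Among the other genes of these pathways, changes ran in both directions. Of all loci tested, 24.5% were called higher and 25.2% lower in *ppn1*Δ. The shares were 19.3% and 20.5% in *swd22*Δ, and 19.5% and 21.8% in *dis2*Δ. The list counts describe the lists and were not tested against these shares. Of 16 exosome and cofactor genes, *dis3* and *rrp6* included, 5 rose and 3 fell in *ppn1*Δ (median log2 fold change 0.12). In *swd22*Δ 0 rose and 2 fell (-0.045), and in *dis2*Δ 0 rose and 2 fell (0.057). The 5 rises became 1 without wild-type replicate 1 or 3, and also without *ppn1*Δ replicate 3. Without wild-type replicate 1 the falls became 0 in both *swd22*Δ and *dis2*Δ, and without wild-type replicate 2 the numbers that rose became 2 in *swd22*Δ and 4 in *dis2*Δ, while the falls in *swd22*Δ became 0. Where 0 exosome genes rose, 1 in *swd22*Δ and 0 in *dis2*Δ were higher at an unadjusted p under 0.05 in edgeR, and 0 with DESeq2. In *ppn1*Δ the largest rises in this list were those of the exosome cap subunit gene *csl4* (1779 to 2149, against 1433 to 1624 in wild-type), the cofactor gene *mpp6* (305 to 366, against 250.4 to 285) and *cid14* (1345 to 1776, against 1125 to 1449, which overlap), which encodes a noncanonical poly(A) polymerase. The 11 genes of MTREC and its partners, 4 of the 10 described genes among them, gave 2 higher and 4 lower in *ppn1*Δ. In *swd22*Δ they gave 0 and 3 (2 higher at an unadjusted p under 0.05 in edgeR, 1 with DESeq2). In *dis2*Δ they gave 2 and 4. Over the refits the numbers higher were 1 to 3, 0 to 2 and 1 to 3 in the same strain order. The numbers lower were 2 to 4, 2 to 3 and 2 to 4. Besides *mmi1*, *cbc1*, the cap-binding complex subunit gene, fell in each mutant, from 3060.2 to 3233 in wild-type cells to 2079 to 2203 in *ppn1*Δ (log2 fold change -0.54, SE 0.057, adjusted p = 8.54e-07), 2388 to 2617 in *swd22*Δ (-0.32, SE 0.057, adjusted p = 0.000246) and 2357 to 2605 in *dis2*Δ (-0.34, SE 0.057, adjusted p = 0.000151). *red5*, which encodes a zinc-finger protein of the same pathway, fell in *ppn1*Δ (mean 533, against 661 in wild-type, with overlapping libraries, adjusted p = 0.0264) and in *swd22*Δ (508, adjusted p = 0.0109). *erh1*, which encodes the dimeric partner of Mmi1, went the other way, from 524 to 602 in wild-type cells to 618 to 726 in *ppn1*Δ (0.29, SE 0.084, adjusted p = 0.00774) and 701 to 704 in *dis2*Δ (0.34, SE 0.084, adjusted p = 0.00418).

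Of 6 termination genes, 1 rose and 1 fell in *ppn1*Δ, 1 rose and 0 fell in *swd22*Δ (0 also at an unadjusted p under 0.05 in edgeR and with DESeq2), and 1 rose and 2 fell in *dis2*Δ. For this list and for cytoplasmic decay below, the shares of all loci are those given above for the exosome genes. *pcf11*, the polymerase-tail binding subunit of the cleavage machinery, rose in *ppn1*Δ and *swd22*Δ (means of 1719 in wild-type, 1954 and 2070.2), *seb1* fell in *ppn1*Δ and *dis2*Δ (2143, 1749 and 1871), and the helicase gene *sen1* fell in *dis2*Δ (2531 and 2038). *din1*, which encodes the partner of Dhp1, rose in *dis2*Δ (975 and 1132). The 22 genes of cytoplasmic decay, with *upf1* and *exo2* among them, gave 3 higher and 7 lower in *ppn1*Δ. They gave 2 and 4 in *swd22*Δ, and 2 and 6 in *dis2*Δ. Over the refits the numbers higher were 1 to 3, 2 to 3 and 1 to 4 in the same strain order. The numbers lower were 5 to 8, 3 to 4 and 3 to 6. In that list *upf3*, a cofactor of Upf1, had the largest rise, from 238 to 318 in wild-type cells to 394 to 487 in *ppn1*Δ (log2 fold change 0.74, SE 0.13, adjusted p = 0.000139), 337.3 to 419 in *swd22*Δ (0.53, SE 0.13, adjusted p = 0.00311) and 394 to 444 in *dis2*Δ (0.61, SE 0.13, adjusted p = 0.00103). The decapping enzyme gene *dcp2* had the largest fall, from 1540.4 to 1749 in wild-type cells to 1061 to 1222 in *ppn1*Δ (-0.56, SE 0.081, adjusted p = 2.82e-05), with falls of -0.32 and -0.32 in *swd22*Δ and *dis2*Δ. Scaling by library size alone raised the median over all loci in *ppn1*Δ from 0.0082 to 0.086, and the medians of the MTREC, termination and cytoplasmic lists rose with it, from -0.065, -0.048 and -0.06 to 0.013, 0.03 and 0.018.

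**Figure D4:**
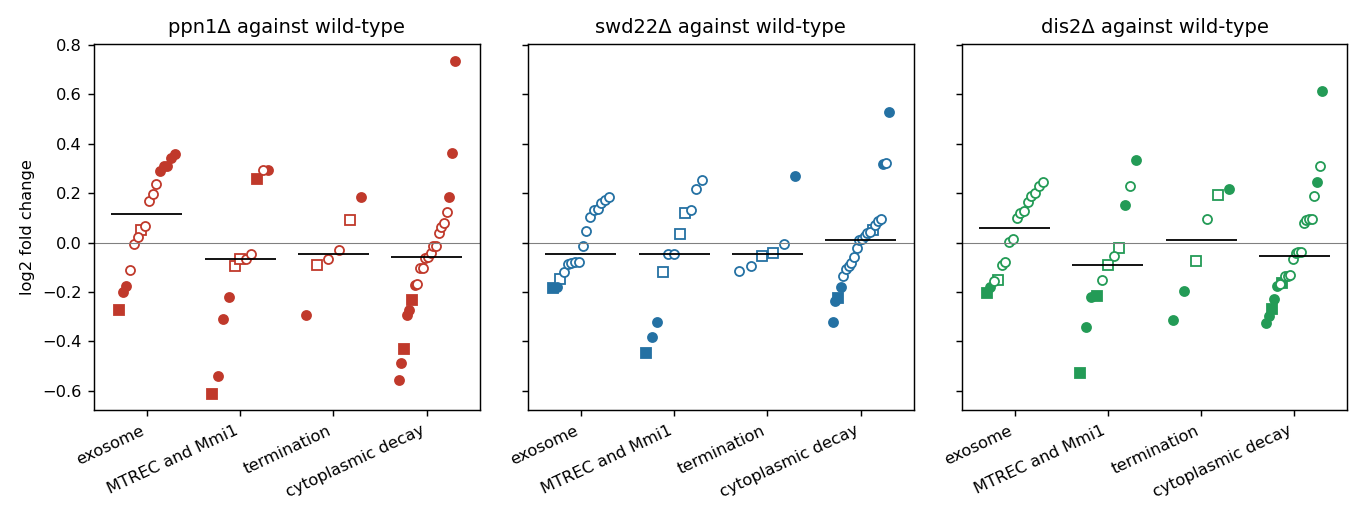
Log2 fold changes of the genes of 4 pathway lists (16 exosome, 11 MTREC and Mmi1, 6 termination and 22 cytoplasmic decay genes) in each mutant, ordered by value; squares are the 10 genes described here and circles the other genes of each list, filled where the adjusted p is at or below 0.05, and black lines are list medians. Rises and falls both occur in most lists. The *ppn1*Δ exosome list holds 5 filled points above 0, where 24.5% of all loci tested were called higher.

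Messages that Mmi1 recognizes were examined as a readout next to *mmi1* itself. Of 7 such meiotic genes, 6 had enough counts to test; *rec8*, the meiotic cohesin gene, had 2 to 15 counts per library and was left out by the low-count filter. In *ppn1*Δ 4 were higher and 0 lower, in *swd22*Δ 4 and 0, and in *dis2*Δ 2 and 1, where 24.5%, 19.3% and 19.5% of all loci were higher. DESeq2 called 3, 3 and 1 higher. At an unadjusted p under 0.05 in edgeR, 1 was lower in *ppn1*Δ and 0 in *swd22*Δ, and with DESeq2 0 in either. *mei4*, the meiotic transcription factor gene, had 46.6, 44.8 and 58.5 normalized counts in wild-type, 77.3, 93.4 and 77.0 in *dis2*Δ, 69.3, 71.1 and 84.5 in *ppn1*Δ, and 75.4, 69.1 and 91.6 in *swd22*Δ. All mutant libraries were above wild-type, and the log2 fold changes were 0.72 (SE 0.18, adjusted p = 0.00425), 0.59 (SE 0.18, adjusted p = 0.0124) and 0.65 (SE 0.18, adjusted p = 0.00889), in the same order. *ssm4*, *spo5* and *mcp7*, other meiotic genes, had means of 23.9, 10.47 and 12.1 in wild-type and 37.3, 16.8 and 22.5 in *dis2*Δ. Their means were 51.4, 19.1 and 27.2 in *swd22*Δ, and 48.9, 18.7 and 24.7 in *ppn1*Δ. *crs1*, a meiotic cyclin gene, had a mean of 20.4 in wild-type and 14.6 to 21.1 in the mutants, and *num1* went lower, from 68.8 in wild-type to 29.5 in *dis2*Δ. These messages have wild-type means of 68.8 normalized counts or fewer. Without wild-type replicate 1 the numbers called higher were 2, 3 and 1, as they were without wild-type replicate 3. Without *ppn1*Δ replicate 3 the number in *ppn1*Δ was 2. Whether the lower *mmi1* message has a part in the higher counts was not tested.

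**Figure D5:**
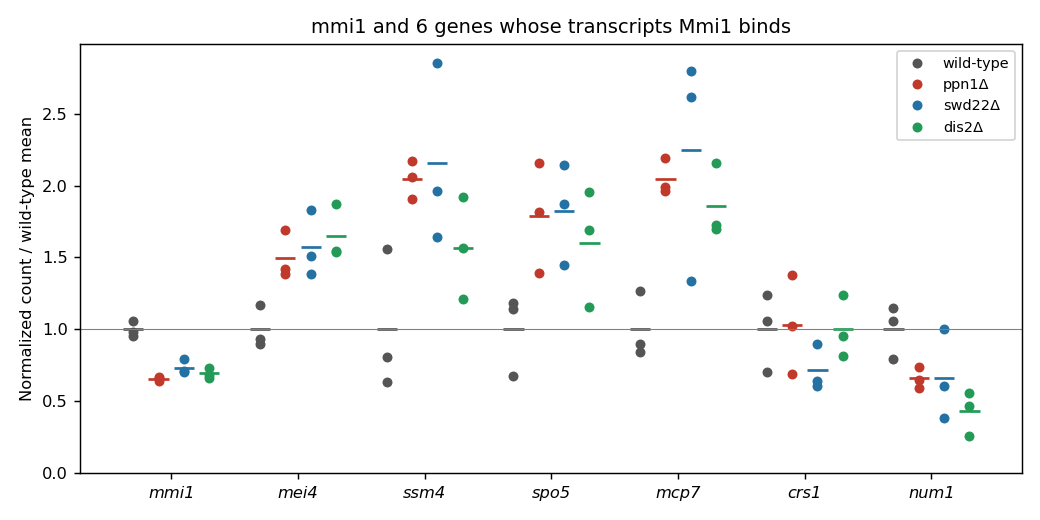
Normalized count of *mmi1* and of 6 meiotic genes whose messages Mmi1 recognizes, divided by the wild-type mean of each gene, in each library, with lines for strain means on an axis that starts at 0. All 9 mutant points of *mei4* lie above its wild-type points, while *num1* has a wild-type mean of 68.8 normalized counts and 29.5 in *dis2*Δ.

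Some of the 10 genes varied together between replicates and others in opposite directions. With the strain means removed, the normalized values of *red1* and *rrp6* over the 12 libraries had a Pearson r of 0.871, as did those of *mtl1* and *rrp6* (0.871), and wild-type replicate 2 was the highest wild-type library for all 3 genes. These were the highest of the 45 pairs; *mmi1* and *rhn1* had the lowest r, -0.837, followed by *mmi1* and *red1* with -0.643. These values are descriptions over libraries that share strains, extraction and sequencing. Over all coding loci, the gene whose log2 profile over the 12 libraries was most like that of *mmi1* was *och1*, a mannosyltransferase gene (Pearson r 0.977), with 1429 to 1553 normalized counts in wild-type and 1121 to 1145 in *ppn1*Δ. The profile most like that of *rrp6* belonged to *noc201*, a nucleolar protein gene (0.977), and the profile most like that of *exo2* to *cct7*, a chaperonin subunit gene (0.973).

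In the ASM294v3 annotation 31 loci overlap the 10 genes, 29 of them on the opposite strand, and every gene has at least 1. Only 9 of the 31 were in the count table. Besides the loci named above, these were *asa1* at *red1*, *cid16* and *rdl1* at *mtl1*, SPNCRNA.1479 at *pab2*, *cnt6* at *dhp1* and SPNCRNA.1406 opposite 42.4% of *rhn1*. Of these 6, *asa1* fell in *ppn1*Δ (log2 fold change -0.25, SE 0.066, adjusted p = 0.00506), *cnt6* fell in *ppn1*Δ (-0.20, SE 0.068, adjusted p = 0.019), and SPNCRNA.1479, at 9.12 to 18.1 normalized counts in wild-type, rose in *ppn1*Δ and *swd22*Δ (0.86 and 1.16). The overlapping locus of *mmi1* with the longest overlap, SPNCRNA.6803 over 50.4% of the gene, and the overlapping loci of *upf1*, *exo2* and *rrp6* had no entry in the counts used here.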

How the data were processed

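Poly(A)+ RNA of 4 strains was sequenced from 3 biological replicates each. For each library the authors mapped paired-end 51-base reads using HISAT2 2.1.0. They deposited raw counts for every annotated locus, made with HTSeq 0.10.0 on ASM294v2 exons, and all per-sample columns were used. The table has 6987 rows for 6986 IDs, and the rows of the 1 repeated ID were summed. Names, lengths, neighbors and overlaps came from RefSeq's ASM294v3, which holds 6833 of the IDs; no coordinates were converted and no sequence was read, because the builds differ. Groups were taken from the sample labels.

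The test was edgeR's glmQLFit and glmQLFTest (edgeR 4.0.16, R 4.3.3) over all 12 libraries with 1 mean per strain, after filterByExpr and TMM scaling, with Benjamini-Hochberg adjustment over 6110 loci. Every adjusted p printed is from this test unless another is named. Libraries held 17616688 to 23435936 counts, and precision rests on the replicate spread. Counting noise is a part of that spread for every gene. *rhn1* had the fewest raw counts of the 10 genes, with 287 to 466 per library. The p-values measure only the spread between these cultures. The edgeR test was first tried on simulated data. The alternatives were DESeq2 1.42.0, scaling by library size only, relative log expression factors, a minimum of 10 counts per library, no filter, the strains compared only, the replicate number as a block, an adjusted p of 0.01, the authors' cutoffs, coding length, and leaving out each library in turn. Tables and figures used matplotlib 3.10.9, pandas 2.3.3, scipy 1.17.1 and numpy 2.4.6 in Python 3.11.15.

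The members, the lists and the tests were chosen with earlier results of these data known. The genes named are the 10 members, the called genes with the largest changes in each pathway list (up to 3 per list and mutant), loci that overlap a member or neighbor it, and the coding locus with the most similar profile (3 printed). The summed levels of marker and stress genes were printed as a check of the samples. Pathway list medians and the neighbor *ago1* are descriptions. Counts of list genes in the refits, including those without single libraries and with DESeq2, were added after the data were seen. So were counts at an unadjusted p under 0.05.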

Additional observations from a re-analysis of the deposited data

Results flagged for a closer look

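Differences between mutants passed the test for 4 of the 10 genes, in 6 comparisons, and each is a direct comparison of 2 mutant strains. *upf1* was higher in *swd22*Δ than in *ppn1*Δ by 0.28 on the log2 scale (adjusted p = 0.0112, edgeR's quasi-likelihood test; means 3096 and 2544) and lower in *dis2*Δ than in *swd22*Δ, at -0.32 (adjusted p = 0.00142; means 2481 and 3096). *exo2* was higher in *swd22*Δ (0.21, adjusted p = 0.0328) and in *dis2*Δ (0.27, adjusted p = 0.00143) than in *ppn1*Δ, with means of 2035, 2126 and 1761. *mtl1* was lower in *dis2*Δ than in *ppn1*Δ, at -0.28 (adjusted p = 0.023; means 974 and 1179.7), and *pab2* was lower in *dis2*Δ than in *swd22*Δ, at -0.25 (adjusted p = 0.00483; means 3059 and 3647). In all 6 comparisons the 3 libraries of one strain lay apart from the 3 of the other. These comparisons were listed because they passed the test, so that separation adds no support. Of all loci tested, 6.32% passed for *swd22*Δ against *ppn1*Δ, 28.7% for *dis2*Δ against *ppn1*Δ and 18.6% for *dis2*Δ against *swd22*Δ. Of the stress genes, *hsp16* had a wild-type mean of 1398 and means of 4952 in *dis2*Δ, 6389 in *ppn1*Δ and 8086 in *swd22*Δ, and *gpd1* had 22694 and, in the same order, 15642, 23921 and 22472. Their part in these differences was not tested.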

How the results depend on the processing

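Across the alternatives no called log2 fold change of the 10 genes turned its direction, and *mmi1* was called lower in every mutant under each alternative except the authors' fold cutoff. With that cutoff the genes called fell to 0 in each of the 6 comparisons, and the loci called to 211 in *ppn1*Δ (3031 as reported), 199 in *swd22*Δ (2432) and 170.0 in *dis2*Δ (2523). At an adjusted p of 0.01 there were 1598 loci in *swd22*Δ and 1659 in *dis2*Δ, and of the 10 genes 0 were called for *swd22*Δ against *ppn1*Δ and 1 for *dis2*Δ against *ppn1*Δ. Library size only, and the strains compared only, each left 1 gene between *swd22*Δ and *ppn1*Δ. Leaving out 1 library gave 3 to 5 genes in *ppn1*Δ, 2 to 3 in *swd22*Δ, 2 to 5 in *dis2*Δ, 0 to 2 for *swd22*Δ against *ppn1*Δ, and 1 to 3 for *dis2*Δ against *ppn1*Δ; the cause was not tested. The *upf1* difference between *swd22*Δ and *ppn1*Δ had an adjusted p of 0.0593 without *swd22*Δ replicate 1. The *mtl1* difference between *dis2*Δ and *ppn1*Δ lost its call without *ppn1*Δ replicate 3 (0.0959) or *dis2*Δ replicate 1 (0.0685) or 2 (0.0837), and the *exo2* difference between *swd22*Δ and *ppn1*Δ without any of 7 libraries (0.0501 to 0.114). The *pab2* difference between *dis2*Δ and *ppn1*Δ passed with library size only (0.00624), with at least 10 counts in every library (0.0488) and without *swd22*Δ replicate 2 (0.0499). With coding length the range of levels was 23.1-fold in place of 9.76-fold. The replicate numbers did not pair the libraries: 5 of 18 same-numbered pairs had a correlation of deviations over 0.1, and a library correlated best with its own number in 11 of 36 cases. With the replicate number as a block the genes called were 5, 3 and 5 against wild-type, as without it, and 2 in each pair of mutants.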
